A study of Mus musculus with 9 samples.

Results

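Ly6C-high microglia sorted from mouse brain were compared with monocytes sorted from spleen, with 3 arrays of each. These are 6 of the 9 arrays of the series, chosen by their titles alone, and every gene read by a probe set with exactly 1 symbol was included, 19937 genes in all. The mice of all groups were wild-type C57BL/6 animals from a pathogen-free facility, and the labels give no age or sex. Per the labels' protocols, mice were perfused with PBS, brains were digested with collagenase and DNase I, and leukocytes were enriched on Percoll and sorted after staining for Ly6C, MHC class II, CD45, F4/80 and CD11b. No gates are given, and no protocol for spleen is described in the sources used here. The labels call the Ly6C-high cells MgSCs, which they do not spell out, and the cells of the other 3 arrays, sorted as Ly6C-low, bulk microglia. The series title speaks of a cell subset from which microglia are maintained and regenerated. RNA integrity numbers were at least 9.2, per the labels. The labels do not say whether replicates came from separate animals, so each p-value speaks only of how far these samples spread, which may be technical in part.

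Microglia are the resident macrophages of the brain parenchyma, settle there from yolk sac progenitors and depend on signals through the CSF1 receptor. Monocytes are leukocytes made in the bone marrow. Classical monocytes carry Ly6C and the chemokine receptor Ccr2 and enter inflamed tissue, while nonclassical monocytes have little Ly6C and patrol the vessel wall. Ly6C is also known on endothelial cells. The endothelium of brain capillaries forms the blood-brain barrier: its cells are sealed by tight junctions, import nutrients through dedicated transporters and keep this state under Wnt signals from the surrounding tissue.

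Values are log2 intensities, a difference of 1 being 2-fold, and every difference is Ly6C-high microglia minus monocytes unless another is named, given as the log2 difference ± SE of the fit. A gene was called where its limma p-value, adjusted over all 19937 genes, was under 0.05, and the value printed after a difference in brackets is that adjusted p. The arrays of the groups were not equally alike. The median SD per gene was 0.27 in Ly6C-high microglia and 0.11 in monocytes, and correlations between arrays over all probe sets ran from 0.872 to 0.924 in the former and from 0.978 to 0.983 in the latter. Ly6C-high replicate 1 was the least like its own group, with a mean correlation of 0.879, against 0.898 and 0.905 for replicates 2 and 3. Limma's weight per array was also lowest for replicate 1, at 0.138, against 0.417 and 0.995. Ly6C-high replicate 2 was nearest the monocytes: its mean correlation with their arrays was 0.909, against 0.819 for replicate 1 and 0.877 for replicate 3. It was the highest of the 3 Ly6C-high arrays in 18 of 19 classical monocyte genes, against 27.6% of all genes. Results that rest on replicate 2 are given with and without it. Genes of the sex chromosomes, looked at after their values were seen, also differed within groups. Xist, transcribed from the inactive X chromosome, read 9.19, 4.43 and 8.58 in Ly6C-high replicates 1 to 3 and 4.13, 4.19 and 10.28 in monocytes, and Eif2s3y, on the Y chromosome, 5.69, 8.12 and 7.92 against 8.70, 8.74 and 4.03. Within each of these groups the arrays thus did not all hold RNA of the same animals, and how many animals they hold is not given. The part of these genes in the results was not tested.

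Transcripts of the sort antigens and of other cell types were read next, as a check of the labels. Each probe set for Ly6C carries 2 symbols, Ly6c1 and Ly6c2, and the genes could not be separated. On probe set 10429568 the Ly6C-high arrays read 12.44 ± 0.05 (SD, n = 3) and the monocytes 10.34 ± 0.16, which was not called over all probe sets (adjusted p = 0.0806), and on probe set 10429573 the means were 11.97 ± 0.10 and 11.66 ± 0.03 (adjusted p = 0.693). On both probe sets every Ly6C-high array lay above every monocyte array. The Ly6C-low arrays, whose spread enters the SE of the fit, read 8.80 ± 1.66 and 8.64 ± 1.32 (SD). Ptprc, which encodes the leukocyte antigen CD45, read 8.02, 9.99 and 7.65 in Ly6C-high replicates 1 to 3 and 11.61, 11.43 and 11.59 in monocytes, and was 7.94-fold lower (adjusted p = 0.00489). Itgam, which encodes CD11b, was lower by 3.72-fold (-1.89 ± 0.32, adjusted p = 0.00445), and Adgre1, which encodes F4/80, by 4.78-fold (-2.26 ± 0.28, 8.87e-04). Genes of endothelium led the differences of the Ly6C-high arrays from monocytes, as described below. Myeloid genes at like levels in both sorts could not lead such differences, however high those levels. The mean of the homeostatic microglia genes lay between those of monocytes and Ly6C-low microglia. The monocyte arrays in turn carried genes of B cells (list mean 8.12 to 8.70 over the 3 arrays, against 5.66 to 6.07 in Ly6C-high microglia), T cells (7.61 to 8.08 against 5.45 to 5.71) and neutrophils (9.42 to 10.06 against 5.99 to 7.04). Neither sort thus carried the markers of 1 cell type alone, and the part of other cells in the results below was not tested. In RNA from sorted bulk cells, a higher share of cells that express a gene and more RNA of it per cell cannot be told apart.

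In all, 4290 genes (21.5%) were called, 1371 of them higher (6.88% of all genes tested) and 2919 lower (14.6%) in Ly6C-high microglia. At least a 2-fold difference was reached by 653 of the higher genes (3.28% of all) and 1795 of the lower (9%), and at least a 4-fold difference by 279 (1.4%) and 462 (2.32%). The median difference of all genes was 0.09. The split depended on scaling, since quantile normalization gave 1494 higher and 1729 lower genes and cyclic loess 1601 and 1957. Single arrays moved the counts: without Ly6C-high replicate 2 there were 2310 higher (11.6%) and 3781 lower (19%) genes, and without monocyte replicate 1, 2 or 3 there were 765, 743 or 852 higher and 1740, 1768 or 2031 lower genes. Of all 34760 probe sets, 4.45% were called higher and 9.93% lower, with 3.33% and 11.4% among those of several symbols and 2.56% and 5.97% among those of none, which the gene table leaves out.

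The 15 largest differences were mostly of genes known from brain capillaries. Slco1a4, an organic anion transporter of the barrier, read 11.32, 11.16 and 11.47 in Ly6C-high replicates 1 to 3 and 4.17, 4.22 and 3.89 in monocytes, 150-fold apart (7.22 ± 0.63, adjusted p = 1.41e-04). Its relative Slco1c1, which carries thyroid hormone, differed by 6.56 ± 0.39 (2.10e-05). Car4, a carbonic anhydrase on the capillary surface, read 11.33, 11.64 and 11.50 against 5.13, 5.19 and 5.19 (6.32 ± 0.27, 4.70e-06), and Emcn, an endothelial sialomucin, 11.02, 11.13 and 11.48 against 4.87, 5.24 and 4.97 (6.18 ± 0.21, 2.58e-06). The groups lay far apart in each of these genes, and the Ly6C-high arrays, replicate 2 included, lay close together. Also among the 15 were Sparcl1, a secreted matrix protein, Itm2a, a membrane protein, Mfsd2a, the lipid transporter that keeps transcytosis across brain capillaries low, Adgrf5, an adhesion receptor of endothelium, Ptn, a heparin-binding growth factor, Prom1, a membrane glycoprotein of progenitor cells, Slc22a8, an organic anion transporter, Palmd, a membrane-associated protein of the paralemmin family, and Spock2, a proteoglycan, at differences of 4.90 to 5.90. These 13 genes were also called higher in Ly6C-high than in Ly6C-low microglia, as 4.49% of all genes were, by 2.55 to 5.66. Both comparisons use the same Ly6C-high arrays, so genes picked for their difference from monocytes are favoured in the comparison with Ly6C-low microglia too.

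The other leading genes, Ttr and Tjp1, were shared with Ly6C-low microglia. Ttr, which encodes the thyroid hormone and retinol carrier transthyretin, had the largest difference of all genes named: the Ly6C-high arrays read 12.96, 12.52 and 12.36, the monocytes 5.09, 5.60 and 4.81 and the Ly6C-low arrays 13.02, 12.59 and 11.88. Ly6C-high arrays were 174-fold above monocytes (7.44 ± 0.32, adjusted p = 4.70e-06) and not distinguishable from Ly6C-low arrays (0.11, adjusted p = 0.831). Tjp1, which encodes the tight junction scaffold ZO-1, read 9.78, 9.97 and 10.52 against 4.29, 4.79 and 4.86 (5.44 ± 0.21, 3.78e-06), and its difference from Ly6C-low microglia did not pass (0.48, 0.181).

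**Figure D1:**
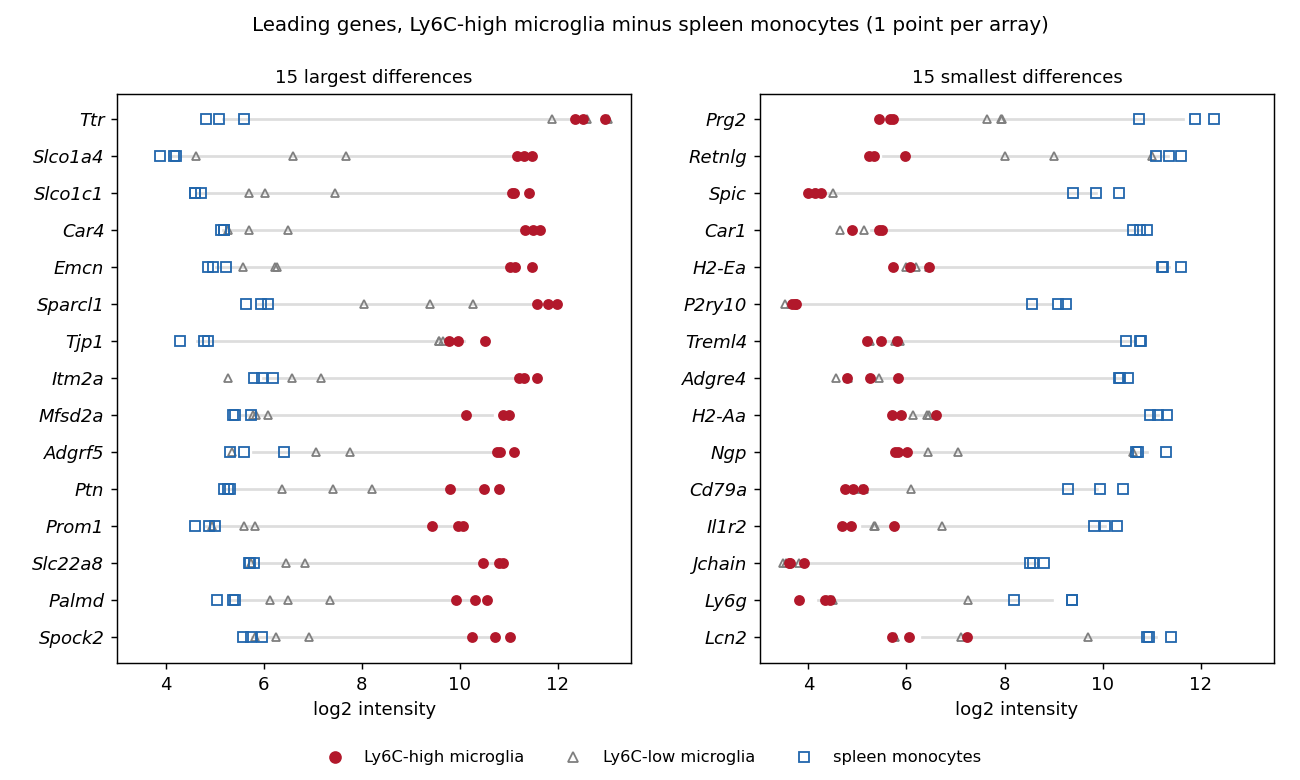
Log2 intensity of the 15 genes with the largest (left) and the 15 with the smallest (right) difference between Ly6C-high microglia (filled circles) and spleen monocytes (open squares), with Ly6C-low microglia as open triangles, 1 point per array. The genes were chosen among those whose Ly6C-high and monocyte arrays do not overlap, so the gap between the groups is set by that choice. In Ttr and Tjp1 the Ly6C-low points lie with the Ly6C-high points.

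Barrier transporters were higher as a group: 20 of 22 measured genes were called higher and 0 lower, with a median difference of 2.59. Beside the leading genes, Slc2a1, the glucose transporter GLUT1, read 12.15, 12.14 and 12.17 against 10.00, 9.88 and 9.65 and was 4.97-fold higher (2.31 ± 0.13, adjusted p = 1.61e-05). Abcb1a, the drug efflux pump P-glycoprotein, differed by 3.41 ± 0.34 (3.01e-04) and Tfrc, the transferrin receptor that imports iron, by 2.13 ± 0.34 (0.00337). The Ly6C-high arrays were above all monocyte arrays in each of the 3. Slc7a5, which imports large neutral amino acids, was 5.69-fold higher (2.78e-05). Slco2b1, a further organic anion transporter, was the exception to the pattern among the brain sorts: it was higher than in monocytes (2.68 ± 0.26, 2.45e-04) and lower than in Ly6C-low microglia (-1.60, 0.00384). The list mean per array was 9.51, 9.85 and 9.99 in Ly6C-high replicates 1 to 3 and 6.72 to 6.89 in monocytes.

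Junction and surface genes of endothelium were called higher in 20 of 22 cases and lower in 0, with a median of 3.40. Cldn5, the main claudin of the barrier, read 10.71, 11.77 and 11.74 in Ly6C-high microglia and 6.89, 6.49 and 6.81 in monocytes (4.68 ± 0.39, adjusted p = 1.06e-04). Ocln, the tight junction protein occludin, differed by 3.36 ± 0.13 (3.75e-06), Cdh5, the cadherin of endothelial adherens junctions, by 3.75 ± 0.36 (2.27e-04), and Podxl, a sialomucin of the luminal surface, by 4.57 ± 0.39 (1.27e-04). Pecam1, which monocytes express too, read 9.64, 10.08 and 10.60 against 7.66, 7.92 and 8.30 and was 4.44-fold higher (0.00573). The members not called were Cd93, a surface glycoprotein of endothelium and myeloid cells (0.71 ± 0.35, 0.172), which was called higher after quantile normalization or cyclic loess, and Plvap, the diaphragm protein of leaky capillaries that the mature brain barrier lacks. Plvap read 7.07, 6.46 and 7.75 against 7.14, 6.77 and 6.82 (0.18 ± 0.29, 0.625), with the groups overlapping.

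Receptors for vascular growth factors and vasoactive ligands were called higher in 17 of 21 genes and lower in 0, with a median of 1.63. Flt1 and Kdr, the VEGF receptors 1 and 2, read 11.42, 11.72 and 11.85 against 6.97, 7.35 and 6.68 and 9.23, 9.32 and 9.73 against 5.51, 5.84 and 6.01. Their differences were 4.66 ± 0.49 (adjusted p = 3.56e-04) and 3.64 ± 0.21 (1.77e-05), and every Ly6C-high array lay above every monocyte array. Tek, the angiopoietin receptor TIE2, differed by 4.59 ± 0.42 (1.76e-04), and the adhesion receptor Adgrl4 by 4.38 ± 0.59 (0.00136). Pdgfb, the ligand with which endothelium recruits pericytes, was 4.01-fold higher than in monocytes (9.14e-04) and not distinguishable between the brain sorts (-0.18, 0.658). S1pr1, a receptor for sphingosine 1-phosphate that lymphocytes also use, read 10.22, 10.81 and 10.38 against 9.48, 9.65 and 10.20 and was not called (0.0804), except after quantile normalization or cyclic loess or without monocyte replicate 3 (0.0468).

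Of 22 transcription factors of endothelium 16 were called higher and 0 lower, with a median of 1.99. Sox18 and Sox17, SOX factors of vascular identity, read 10.82, 11.31 and 11.45 against 6.10, 6.35 and 6.74 and 7.89, 8.95 and 9.77 against 5.19, 5.16 and 5.43. They differed by 4.80 ± 0.39 (adjusted p = 1.04e-04) and 3.61 ± 0.47 (0.00118), Sox17 with a spread of nearly 2 log2 units over the Ly6C-high arrays. Foxf2, a forkhead factor of brain vessels, differed by 3.65 ± 0.25 (3.59e-05), and Epas1, the hypoxia-inducible factor HIF-2alpha, by 4.63 ± 0.55 (7.24e-04). Lyl1, a factor that endothelium shares with blood cells, read 7.11, 8.82 and 7.85 against 9.07, 9.18 and 9.07 and was not called (0.06), but was called lower without dim genes (adjusted p = 0.0365), with array weights (0.0205) and with the replicate numbers as a block (0.0294). Without Ly6C-high replicate 2, 15 factors were called higher and 2 lower, Ets2 (-1.31) and Lyl1 (-1.62).

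Of 21 genes of the Wnt pathway of the barrier 13 were called higher and 1 lower, with a median of 0.89. Receptor components were higher: Fzd6 by 2.90 ± 0.32 (adjusted p = 5.06e-04), Fzd4, the receptor for norrin, by 1.91 ± 0.23 (8.31e-04), and Tspan12, its coreceptor, by 3.27 ± 0.18 (1.63e-05). So were feedback targets, among them Apcdd1, an inhibitor at the membrane, which read 10.64, 10.90 and 11.29 against 6.27, 6.16 and 6.22 (4.72 ± 0.18, 3.75e-06), Nkd1 (2.01 ± 0.17, 1.37e-04) and Axin2 (1.61 ± 0.25, 0.00266). The ligand Wnt7a, which neural cells supply, read 4.98, 5.12 and 4.91 against 4.88, 4.91 and 4.91 and was not called (0.416). Among the nuclear effectors, Lef1 was 2.94-fold higher (0.005). Tcf7l2 was lower (-0.81 ± 0.21, 0.0268), a call lost when Ly6C-high replicate 1 or 3 or monocyte replicate 1 or 3 was left out (adjusted p = 0.0686 to 0.0799).

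Of 20 Notch pathway genes 6 were called higher and 4 lower, the latter a share near the 14.6% of all genes, with a median of 0.68. The higher genes are known from vascular endothelium: the ligands Dll4 (2.71 ± 0.25, adjusted p = 1.88e-04) and Jag2 (2.43 ± 0.25, 3.02e-04), the receptor Notch4 (1.56 ± 0.12, 6.62e-05), the gap junction gene Gja4 and the targets Hey1 and Hey2. Hey1 read 11.32, 8.40 and 8.30 in Ly6C-high replicates 1 to 3 and 6.46, 6.21 and 6.76 in monocytes (2.86 ± 0.72, 0.0245), with replicate 1 about 3 log2 units above the others, and lost its call without any single monocyte array (adjusted p = 0.0567 to 0.0825). Notch2, the receptor that guides spleen myeloid and marginal zone B cells, was the lowest member, at 6.57, 7.99 and 7.08 against 9.57, 9.60 and 9.58 (-2.37 ± 0.30, 9.59e-04). Lfng, a glycosyltransferase that modifies Notch receptors, was also lower (-0.91 ± 0.11, 7.15e-04), though not after quantile or cyclic loess scaling. The other lower genes were Rbpj, the DNA-binding partner of cleaved Notch (-0.77 ± 0.22, 0.0368), and its coactivator Maml1 (-0.60 ± 0.16, 0.0288). Rbpj lost its call without Ly6C-high replicate 1 or 2, Ly6C-low replicate 2 or 3 or any monocyte array (0.0526 to 0.126). With its probe sets averaged, Rbpj differed by only -0.34 and was not called (0.109). Maml1 lost its call without Ly6C-high replicate 3 or any monocyte array (0.0598 to 0.105). Hey2 (1.69 ± 0.50, 0.0439) lost its call without any array other than Ly6C-high replicate 2 (0.057 to 0.133). The 4 lower calls became 2 without monocyte replicate 1, 2 or 3, and 1 under quantile or cyclic loess scaling.

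Basement membrane and matrix genes were called higher in 19 of 22 cases and lower in 0, with a median of 1.83. They include the collagen chains Col4a1 (1.89 ± 0.23, adjusted p = 8.64e-04) and Col4a2 (1.13 ± 0.14, 9.65e-04), the laminin chains Lama4 (2.60 ± 0.35, 0.00142) and Lama5 (1.81 ± 0.19, 4.25e-04), and Timp3, an inhibitor of matrix proteases (3.51 ± 0.53, 0.00245). Ltbp4, which stores latent TGF-beta in the matrix, read 8.88, 9.14 and 9.59 against 5.77, 6.02 and 6.18 (3.21 ± 0.29, 1.58e-04).

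Genes of pericytes and smooth muscle, the cells that wrap brain vessels, followed in part: 7 of 16 were called higher and 0 lower, with a median of 1.19. Ly6C-high replicate 3 was the highest of the 3 arrays in 13 of the 16, against 23.9% of all genes. Its list mean was 8.02, against 6.99 and 6.76 in replicates 1 and 2 and 5.76 to 5.80 in monocytes. Replicate 3 also led in other lists, with 17 of 22 junction and surface genes, 15 of 22 matrix genes and 16 of 24 homeostatic microglia genes. In classical monocyte genes it led in 0 of 19. Vtn, vitronectin, read 9.06, 8.42 and 10.30 against 5.66, 5.66 and 5.15 (3.77 ± 0.43, adjusted p = 5.61e-04), and Rgs5, a regulator of G protein signalling and pericyte marker, 9.77, 8.74 and 10.43 against 5.54, 4.78 and 4.94 (4.56 ± 0.58, 0.00102). The smooth muscle genes Acta2 (2.62 ± 0.40, 0.00257) and Myh11 (2.30 ± 0.41, 0.00563) were higher as well. Limma's weights per array, which counted replicate 3 most among the Ly6C-high arrays, gave 11 higher genes in this list.

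Ttr is best known from choroid plexus epithelium, and no other gene of that epithelium was called higher. Of 14 measured genes only Ttr was called higher and only Aqp1 lower, and the median was 0.34. Folr1 read 6.34, 6.00 and 6.33 against 6.00, 6.20 and 5.98 (0.609) and Clic6, a chloride channel protein, 4.33, 4.39 and 4.25 against 4.17, 3.95 and 4.16 (0.59). Neither passed the test. Small differences leaned upward all the same, the Ly6C-high arrays lying above the monocytes without overlap in 8 of the 14 genes, against 24.1% of all genes. The interquartile range over all probe sets was narrower in the Ly6C-high arrays (2.24 to 2.73) than in monocytes (2.89 to 2.91). Its part in this lean was not tested. Ly6C-low replicate 1 had the highest list mean, 7.16, against 6.03 to 6.38 in the Ly6C-high arrays. The number called higher rose to 4 without Ly6C-low replicate 1 and to 2 without Ly6C-low replicate 3, and the call of Aqp1 was lost without any of 6 arrays, Ly6C-high replicates 1 and 3, Ly6C-low replicates 2 and 3 and monocyte replicates 1 and 2 (adjusted p = 0.0619 to 0.113).

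Genes of homeostatic microglia were above monocytes in part. Of 24 measured genes 11 were called higher and 4 lower, with a median of 0.61. P2ry12, the ADP receptor that steers microglial processes, read 8.06, 8.49 and 9.49 in Ly6C-high replicates 1 to 3 and 6.10, 6.15 and 6.30 in monocytes (2.50 ± 0.36, adjusted p = 0.0018). Tmem119, a membrane protein specific to microglia, read 8.23, 8.47 and 9.32 against 6.22, 6.46 and 6.04 (2.43 ± 0.29, 6.70e-04), and Gpr34, a lysophospholipid receptor, 7.64, 7.43 and 8.03 against 5.43, 5.43 and 5.44 (2.27 ± 0.20, 1.54e-04). No Ly6C-high array overlapped the monocytes in these, and replicate 3 was the highest in each. The adhesion receptor Adgrg1 (1.96 ± 0.23, 7.26e-04) and Sall1, a zinc finger factor that keeps microglia from other macrophage states (1.84 ± 0.23, 8.94e-04), were higher too.

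All 24 of these genes were lower in Ly6C-high than in Ly6C-low microglia at an adjusted p under 0.05, where 11% of all genes were, with a median difference of -2.70. The list mean was 7.81, 7.79 and 8.39 in Ly6C-high replicates 1 to 3, 10.32 to 10.71 in the Ly6C-low arrays and 7.35 to 7.38 in the monocyte arrays. The 4 genes called lower against monocytes are a share near the 14.6% of all genes. The largest of these differences was that of P2ry6, a UDP receptor, at 7.63, 8.24 and 7.77 against 9.76, 9.84 and 9.04 (-1.67 ± 0.25, adjusted p = 0.00241). Csf1r, the receptor for CSF1 and IL-34, read 9.62, 10.11 and 10.53 against 10.73, 10.82 and 10.83 (-0.70 ± 0.20, 0.0381), Abi3, a regulator of actin, 8.80, 8.09 and 8.23 against 9.12, 9.37 and 9.14 (-0.84 ± 0.18, 0.0135), and Mef2c, a transcription factor of myeloid and B cells, 8.89, 9.02 and 9.45 against 9.70, 9.91 and 10.07 (-0.78 ± 0.23, 0.0447). Of the 4 calls, 2 remained without Ly6C-high replicate 2, Ly6C-low replicate 2 or 3 or monocyte replicate 1 or 3, and 1 remained without monocyte replicate 2 or after quantile or cyclic loess scaling. Those of Csf1r and Mef2c were lost without most single arrays (0.0528 to 0.11 and 0.0503 to 0.131), and that of Abi3 without monocyte replicate 2 (0.0576). Under cyclic loess the log2 difference of Csf1r changed sign, to 0.06 (adjusted p = 0.826).

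Macrophages of the brain borders and of the spleen were set beside these, since either sort could hold such cells. Of 18 genes 10 were called lower and 4 higher, with a median of -1.06. Spic, the transcription factor of red pulp macrophages, read 4.14, 3.98 and 4.26 in Ly6C-high microglia, 4.49, 4.12 and 4.16 in Ly6C-low microglia and 9.40, 9.88 and 10.34 in monocytes, 53.6-fold lower than in the latter (-5.74 ± 0.23, adjusted p = 3.78e-06). Vcam1, an adhesion molecule that red pulp macrophages carry, differed by -2.68 ± 0.45 (0.00405), and Mrc1, the mannose receptor, by -2.90 ± 0.50 (0.00445). Monocyte replicate 3 was the highest array for each of these 3. Dab2, an endocytic adaptor found in macrophages and endothelium, went the other way, at 9.49, 9.85 and 10.29 against 6.42, 7.15 and 6.48 (3.19 ± 0.31, 2.40e-04), and the scavenger receptor Stab1 was higher by 0.93 ± 0.17 (0.00682). The 4 higher calls became 2 without monocyte replicate 2 or 3.

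**Figure D2:**
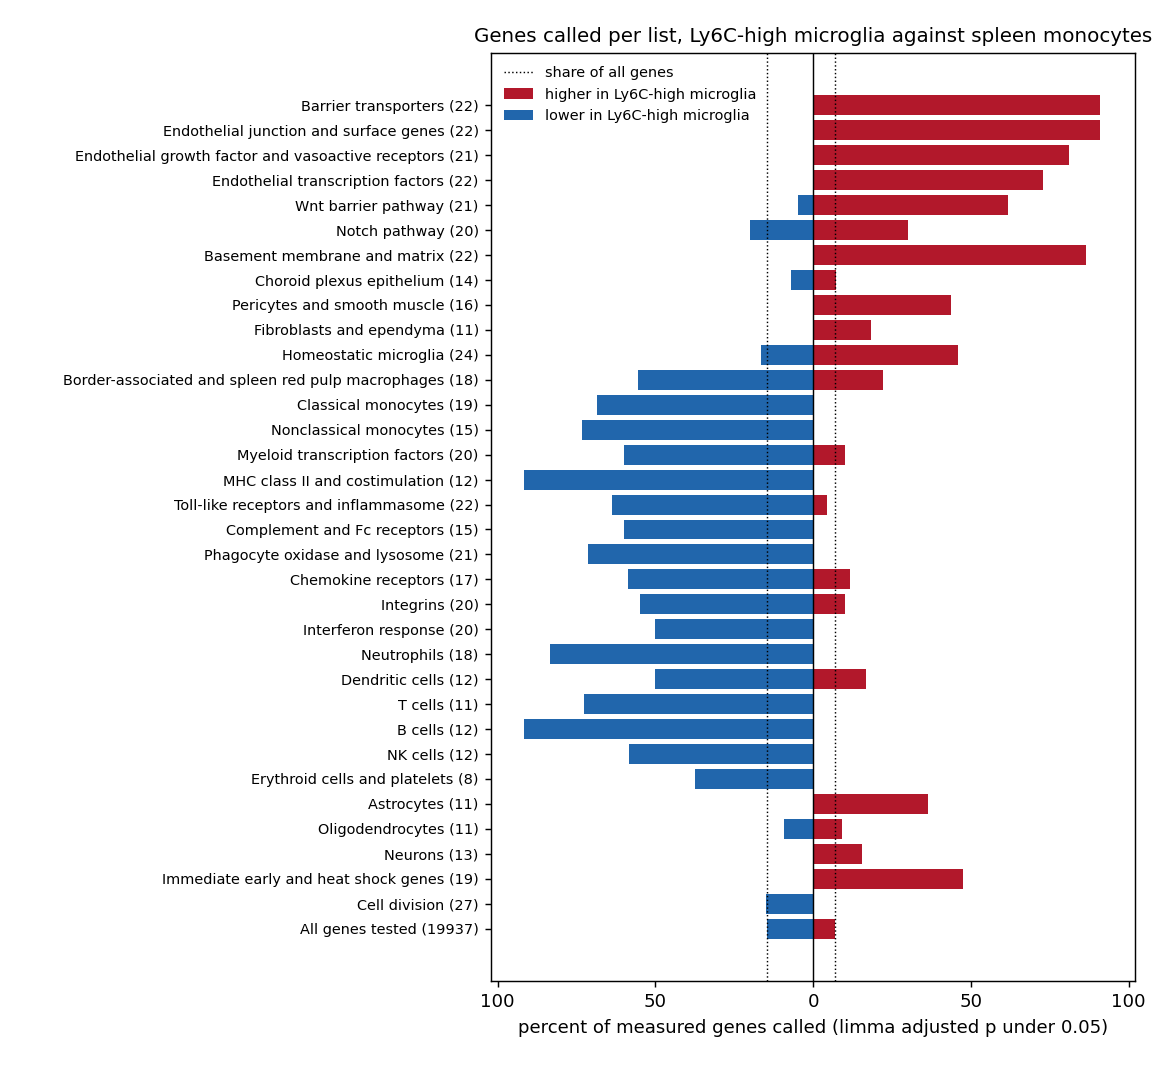
Percent of the measured genes of each list called higher (right) and lower (left) in Ly6C-high microglia against spleen monocytes, with the share of all genes as dotted lines (6.88% and 14.6%). Endothelial lists fill the right side, with 20 of 22 barrier transporters called higher, and monocyte, lymphocyte and neutrophil lists the left, with 15 of 18 neutrophil genes called lower.

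Immediate early and heat shock genes, which cells switch on quickly under stimulation or stress, were called higher in 9 of 19 cases and lower in 0, with a median of 0.97. Egr1 read 11.99, 12.15 and 12.22 in Ly6C-high microglia and 10.10, 9.76 and 10.88 in monocytes (1.87 ± 0.25, adjusted p = 0.00125), Jun 11.67, 11.65 and 11.73 against 9.93, 9.09 and 10.60 (1.81 ± 0.31, 0.00473) and the chaperone gene Hspa1a 11.12, 11.18 and 11.69 against 8.65, 7.60 and 9.16 (2.86 ± 0.35, 8.29e-04). The near-identical gene Hspa1b may share the signal of Hspa1a. Rhob, a small GTPase of the same early response, differed by 1.71 ± 0.22 (9.49e-04). Among the monocyte arrays replicate 2 was the lowest and replicate 3 the highest in these 4. Ly6C-low microglia, which went through the same brain protocol, did not differ from Ly6C-high microglia beyond the test in Egr1 (-0.33, 0.414), Jun (-0.44, 0.392) or Hspa1a (-0.11, 0.849). However, 4 of the 19 genes were called lower in Ly6C-high than in Ly6C-low microglia, where 11% of all genes were, Rhob among them (-0.90, 0.0237). The count depended on scaling, at 15 under quantile normalization and 16 under cyclic loess, and was 4 with the 6 arrays alone and a weight per group, a setting in which Egr1 and Jun were no longer called.

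MHC class II genes, whose products present peptides to helper T cells, were lower almost without exception. The genes are known to be switched on together by the coactivator CIITA, acting through the X and Y boxes of their promoters. For the members that a RefSeq promoter table of GRCm38.p6 covers, the 130 bases before the transcription start are shown where both boxes were found, each given 5′ to 3′ along the gene's own strand, with capitals for GCAAC, part of the X box, and for GATTGG, the core of the Y box.
H2-Aa: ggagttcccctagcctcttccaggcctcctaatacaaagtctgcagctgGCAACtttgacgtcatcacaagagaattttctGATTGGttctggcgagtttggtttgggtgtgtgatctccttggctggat
H2-Eb1: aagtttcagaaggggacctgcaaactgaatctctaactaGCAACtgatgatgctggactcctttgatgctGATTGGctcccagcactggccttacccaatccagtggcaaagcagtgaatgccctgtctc
H2-Oa: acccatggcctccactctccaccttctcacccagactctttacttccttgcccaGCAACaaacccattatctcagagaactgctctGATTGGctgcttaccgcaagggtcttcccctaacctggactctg
H2-Ob: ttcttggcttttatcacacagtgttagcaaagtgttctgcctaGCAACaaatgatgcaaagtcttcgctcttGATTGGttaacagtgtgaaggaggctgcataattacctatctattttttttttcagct

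The search took GCAAC followed after 15 to 40 bases by GATTGG on either strand, in the 250 bases before the start, and was set after the sequences had been seen. It was met in these 4 of the 7 list genes with a promoter in the table (57.1%), against 117 of 27025 genes (0.433%). H2-Aa lies at chr17:34287824-34287953 on the minus strand, and H2-Eb1 (chr17:34305737-34305866), H2-Oa (chr17:34092249-34092378) and H2-Ob (chr17:34238775-34238904) lie on the plus strand, all in the major histocompatibility region. A match describes the letters and does not show that a factor binds there.

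Of 12 genes for MHC class II and costimulation 11 were called lower and 0 higher, with a median of -2.57. H2-Aa, the alpha chain of I-A, read 5.70, 6.61 and 5.88 in Ly6C-high microglia and 10.97, 11.14 and 11.30 in monocytes, 33.6-fold lower (-5.07 ± 0.23, adjusted p = 6.30e-06). Its partner H2-Ab1 read 6.43, 6.24 and 6.22 against 9.96, 10.19 and 10.65 (-3.97 ± 0.17, 4.70e-06), and H2-Eb1, the I-E beta chain, 6.36, 5.99 and 6.27 against 8.96, 9.47 and 10.14 (-3.32 ± 0.26, 8.23e-05). No Ly6C-high array came within 2 log2 units of a monocyte array in these. Cd74, the invariant chain that guards the peptide groove, read 6.33, 7.40 and 7.72 against 11.25, 11.39 and 11.74 (-4.31 ± 0.32, 5.74e-05), with Ly6C-high replicate 1 the lowest.

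The chains that edit the peptide followed, with smaller differences in H2-Oa (-1.32 ± 0.19, adjusted p = 0.00209) and H2-Ob (-1.71 ± 0.22, 0.001), and with the probe set for H2-DMb1 and H2-DMb2 lower by 3.79 over all probe sets (adjusted p = 1.15e-04). H2-Ea was among the 15 smallest differences (-5.26 ± 0.21, 3.88e-06), but C57BL/6 mice are known to lack a working I-E alpha gene, so which transcript this probe set reads is uncertain. Ciita itself read 6.24, 5.93 and 5.92 against 6.44, 6.95 and 8.70 and was not called (0.0837), the monocyte arrays being spread over 2 log2 units. Without monocyte replicate 1 it differed by -1.79 and was called (0.0387). Ly6C-low microglia were also below monocytes in the list median (-1.34), though not in Cd86, with means of 9.89 and 9.99. H2-Aa did not differ between the brain sorts beyond the test (-0.27, 0.471). Of the 12 genes, 3 were called lower in Ly6C-high than in Ly6C-low microglia, where 11% of all genes were, Cd74 among them (-1.37, 0.0208). In the other direction 1 was called, Cd40 (0.76, 0.0094), against 4.49% of all genes. Without Ly6C-high replicate 2 the median difference from monocytes became -3.11 and 11 genes were again called lower than in monocytes.

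Classical monocyte genes separated the Ly6C-high arrays from each other. Of 19 measured genes 13 were called lower and 0 higher, with a median of -2.90. Plac8, a small cysteine-rich protein of classical monocytes and progenitors, read 7.51, 10.51 and 5.62 in Ly6C-high replicates 1 to 3 and 11.60, 11.59 and 11.46 in monocytes. Ccr2, which leads monocytes out of the marrow, read 7.62, 9.92 and 6.20 against 10.55, 10.52 and 10.90, and Ms4a4c, a membrane protein of the same cells, 6.09, 9.15 and 5.18 against 10.37, 10.53 and 10.61. Replicate 2 lay about 1 log2 unit below the monocytes in these genes and replicates 1 and 3 by about 3 to 6. The list mean was 9.82 in replicate 2, 7.22 and 6.61 in replicates 1 and 3, and 10.54 to 10.89 in monocytes.

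Leaving out Ly6C-high replicate 2 raised the lower calls to 17 of 19 and moved the median to -3.75. Plac8 then differed by -4.99 (adjusted p = 0.00236) in place of -3.67 (0.0455), Ccr2 by -3.75 (7.76e-04) in place of -2.74 (0.0386), and Chil3, a secreted lectin whose near copy Chil4 may share its probes, by -4.91 (3.85e-04) in place of -3.58 (0.0361). With all arrays the count was not stable. It was 4 or 7 without Ly6C-high replicate 1 or 3, 8 without Ly6C-low replicate 1 or 2, 5 or 3 without monocyte replicate 1 or 2, and 5 with the 6 arrays alone. The calls of Plac8 and Ccr2 were each lost without any single array other than Ly6C-high replicate 2 (adjusted p = 0.0516 to 0.118 and 0.0529 to 0.105), and that of Chil3 without any other than Ly6C-high replicate 2 and Ly6C-low replicate 3 (0.0517 to 0.11). None of the 3 was called lower with the 6 arrays alone or after quantile normalization. Clec4e, the receptor Mincle for mycobacterial and fungal glycolipids, read 4.52, 7.76 and 5.06 against 10.10, 10.74 and 9.91 and kept its call in every setting (-4.47 ± 0.81, 0.00595).

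**Figure D3:**
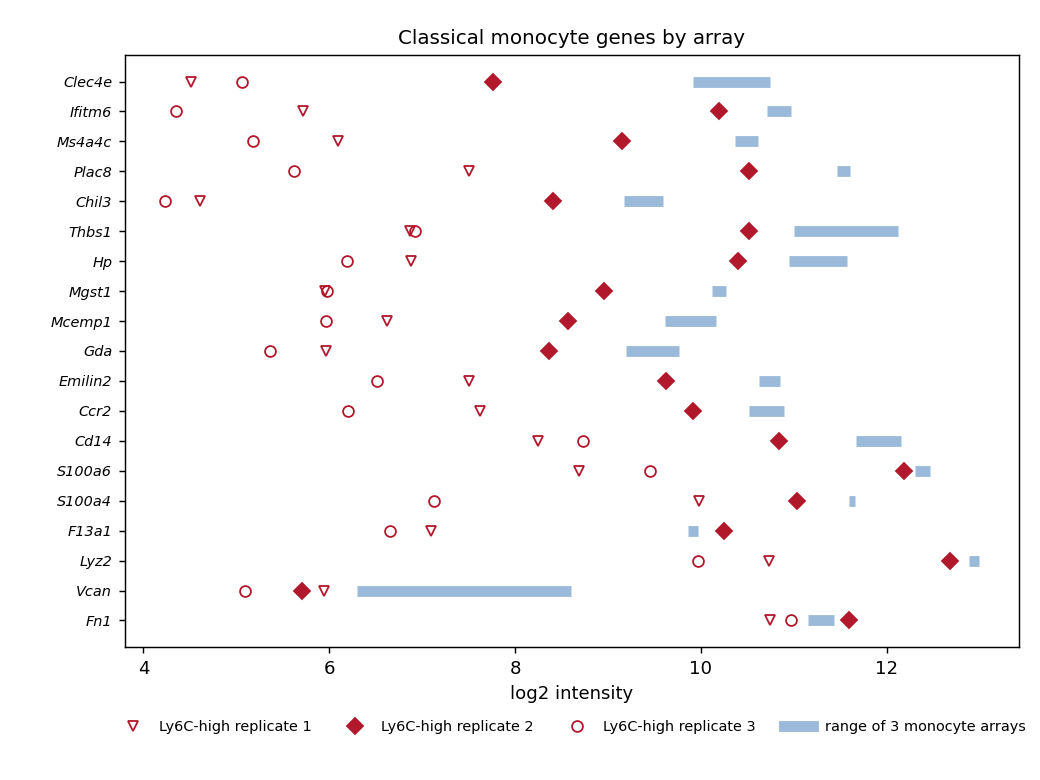
Log2 intensity of 19 classical monocyte genes in Ly6C-high replicates 1 to 3 (symbols) with the range of the 3 monocyte arrays as bars. Replicate 2 is the highest Ly6C-high array in 18 of 19 genes and replicates 1 and 3 lie further below the monocyte range in nearly every gene.

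Nonclassical monocyte genes were lower with no Ly6C-high array standing apart. Of 15 measured genes 11 were called lower and 0 higher, with a median of -1.68. Treml4, a receptor of nonclassical monocytes and spleen myeloid cells, read 5.80, 5.20 and 5.47 against 10.47, 10.78 and 10.76, 36.2-fold lower (-5.18 ± 0.21, adjusted p = 3.88e-06). Adgre4, an adhesion receptor of the same cells, read 5.26, 5.84 and 4.79 against 10.36, 10.52 and 10.34 (-5.11 ± 0.29, 1.77e-05), and Cd36, a scavenger receptor for oxidised lipids, differed by -3.41 ± 0.29 (1.19e-04). Replicate 2 did not stand apart here: its list mean was 7.06, against 6.98 and 6.89 in replicates 1 and 3 and 8.86 to 9.01 in monocytes. Pglyrp1, a peptidoglycan-binding protein, was high in both groups, at 10.92, 10.79 and 11.27 against 10.37, 9.90 and 10.25 (0.82 ± 0.30, 0.0849). It was not called, but was called higher with the 6 arrays alone (0.0366), without Ly6C-low replicate 3 (0.0323) and after quantile normalization or cyclic loess.

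**Figure D4:**
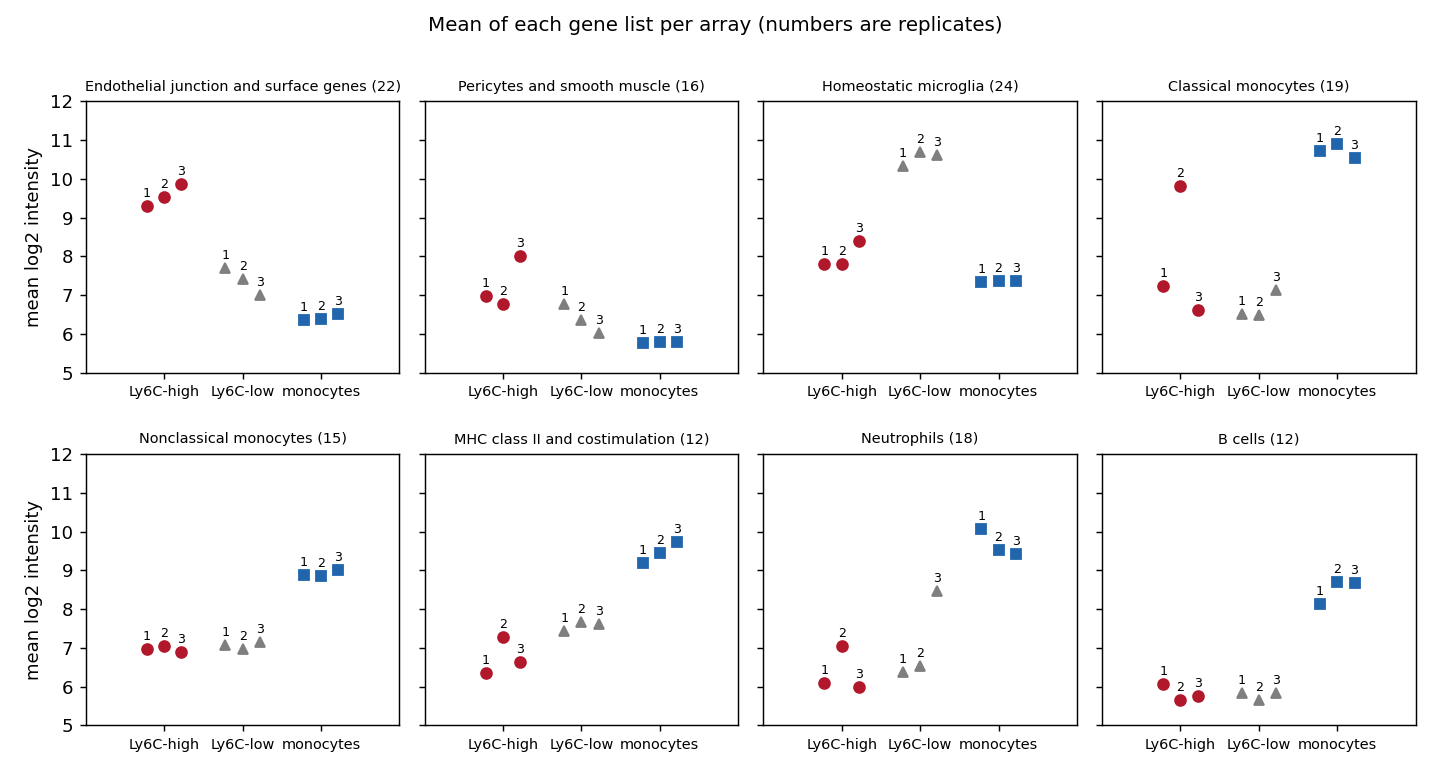
Mean log2 intensity of gene lists in each array, with replicate numbers beside the points and the number of measured genes in each title. Replicate 2 of Ly6C-high microglia reaches 9.82 for classical monocyte genes, beside 10.54 to 10.89 in monocytes, and does not stand apart for nonclassical monocyte genes, at 7.06.

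Transcription factors of myeloid cells were called lower in 12 of 20 cases and higher in 2, with a median of -1.32. Spi1, which encodes the master regulator PU.1, read 7.56, 9.50 and 7.84 in Ly6C-high replicates 1 to 3 and 10.51, 10.29 and 10.47 in monocytes (-2.13 ± 0.43, adjusted p = 0.0101). Runx3, a factor of lymphoid and monocyte lineages, read 6.68, 7.11 and 6.61 against 10.60, 10.46 and 9.89 (-3.52 ± 0.22, 2.74e-05), and Myb, the factor that blood stem cell-derived lineages need and yolk sac-derived microglia do not, 6.28, 6.67 and 6.13 against 8.96, 8.86 and 8.37 (-2.37 ± 0.21, 1.35e-04). Ly6C-low microglia stood with the Ly6C-high arrays for Myb (0.13, 0.688) and above them for Runx1 (-2.58, 0.00611), which was lower than in monocytes too (-2.61 ± 0.46, 0.00535). Klf4, shared by monocytes and endothelium, was higher (1.37 ± 0.29, 0.0112), as was Cebpd (1.26 ± 0.27, 0.0123), both losing the call where groups were weighted by their spread. Replicate 2 was the highest Ly6C-high array in 18 of the 20 genes, and without it 14 were called lower, with a median of -1.61.

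Receptors and cytokines of innate sensing were called lower in 14 of 22 genes and higher in 1, with a median of -1.50. Il1b, the inflammatory cytokine IL-1beta, read 6.24, 9.35 and 8.37 against 11.48, 11.65 and 11.49 (-3.55 ± 0.66, adjusted p = 0.00657) and Il18, a related cytokine, 4.85, 4.97 and 5.84 against 8.37, 8.29 and 8.64 (-3.22 ± 0.27, 1.13e-04). Il1a, which encodes IL-1alpha, was higher, at 9.96, 9.48 and 10.27 against 8.19, 7.87 and 9.09 (1.52 ± 0.31, 0.00978), a call lost where groups were weighted by their spread. The endosomal RNA sensor Tlr8 differed by -2.60 ± 0.31 (7.21e-04). In the comparison with Ly6C-low microglia, which uses the same Ly6C-high arrays, 16 of the 22 genes were called lower, against 11% of all genes.

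Complement and Fc receptor genes were called lower in 9 of 15 cases and higher in 0, with a median of -1.78. C5ar1, the receptor for the anaphylatoxin C5a, differed by -2.97 ± 0.49 (adjusted p = 0.00366), Fcgr4, an activating IgG receptor, by -3.07 ± 0.25 (9.67e-05), and Cd55, an inhibitor of complement, by -3.41 ± 0.25 (5.98e-05). Of the subunits of C1q, which spleen macrophages and microglia both make, C1qa read 9.40, 8.79 and 10.34 against 9.13, 8.69 and 9.58 (0.38 ± 0.39, 0.466) and C1qb differed by 0.17 ± 0.26 (0.62), neither called. C1qb was called higher after quantile normalization (0.71, 0.0392) and cyclic loess (0.86, 0.0135).

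Genes of the phagocyte oxidase and lysosome were called lower in 15 of 21 cases and higher in 0, with a median of -1.13. Cybb, the catalytic subunit of the oxidase, read 6.64, 10.23 and 6.92 in Ly6C-high replicates 1 to 3 and 11.50, 11.54 and 11.52 in monocytes (-3.59 ± 0.83, adjusted p = 0.0171). Replicate 2 was over 3 log2 units above replicates 1 and 3, and without it the difference was -4.74 (5.05e-05). The call was lost without Ly6C-high replicate 1 or any single monocyte array (0.0515 to 0.0569). Rac2, the small GTPase that activates the oxidase, differed by -2.19 ± 0.28 (9.35e-04) and Ctsz, a lysosomal protease, by -1.79 ± 0.12 (2.90e-05), with tighter arrays. The list's count depended on scaling and on the monocytes: 8 genes were called lower under quantile normalization, 5 under cyclic loess, 9 with the 6 arrays alone and 7, 7 or 9 without monocyte replicate 1, 2 or 3, and 18 without Ly6C-high replicate 2.

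Chemokine receptors were called lower in 10 of 17 genes and higher in 2, with a median of -1.15. The lower ones were led by receptors of other leukocytes of the spleen: Cxcr2, of neutrophils, read 4.99, 4.07 and 4.67 against 8.71, 8.77 and 8.90 (-4.21 ± 0.64, adjusted p = 0.00251), Ccr9, of plasmacytoid dendritic cells and gut-homing T cells, 5.40, 5.22 and 4.96 against 8.46, 8.30 and 8.48 (-3.22 ± 0.16, 1.15e-05), and Ccr7, of T cells and migrating dendritic cells, 6.86, 6.26 and 6.67 against 9.28, 9.42 and 9.42 (-2.78 ± 0.16, 1.79e-05). Each of the 3 was low in every Ly6C-high array. The higher ones were Ackr3, a scavenger of CXCL12 on vessels (1.86 ± 0.40, 0.0133), and Cx3cr1, the fractalkine receptor of microglia and monocytes, at 10.41, 10.67 and 10.99 against 10.09, 10.08 and 10.22 (0.56 ± 0.15, 0.0275). Cx3cr1 lost its call without any single monocyte array (0.0559 to 0.0939) and Ackr3 without monocyte replicate 2 (0.0539), and without Ly6C-high replicate 3 there were 4 higher receptors.

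Of 20 integrin subunits 11 were called lower and 2 higher, the latter a share near the 6.88% of all genes, with a median of -0.85. Itgal, the alpha chain of LFA-1, read 6.90, 7.13 and 6.08 against 10.44, 10.47 and 10.09 (-3.63 ± 0.27, adjusted p = 6.38e-05), and its beta chain Itgb2 6.95, 10.06 and 7.49 against 11.15, 11.36 and 11.23 (-3.08 ± 0.67, 0.0132), with Ly6C-high replicate 2 over 2 log2 units above replicates 1 and 3. Itga4, with which leukocytes bind VCAM1, differed by -3.15 ± 0.49 (0.00281), and Itgax, which encodes CD11c, by -2.67 ± 0.13 (1.13e-05). The laminin and collagen receptors Itga6 (1.38 ± 0.21, 0.00252) and Itga1 (2.10 ± 0.44, 0.012) were higher, Itga1 not where groups were weighted by their spread, and Itga3 (0.61 ± 0.20, 0.0594) and Itga7 (0.37 ± 0.12, 0.0529) were not called. Both were called higher without Ly6C-high replicate 2 and with array weights, and Itga3 also after quantile normalization, without dim genes, without Ly6C-low replicate 3 and with the 6 arrays alone and a weight per group.

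Interferon-stimulated genes were called lower in 10 of 20 cases and higher in 0, with a median of -0.62. Zbp1, a sensor of Z-form nucleic acid, read 6.31, 7.02 and 6.36 against 8.95, 8.92 and 8.86 (-2.35 ± 0.21, adjusted p = 1.54e-04), and the antiviral genes Oas2 and Rsad2 differed by -2.49 ± 0.30 (7.01e-04) and -2.05 ± 0.26 (9.22e-04). Against Ly6C-low microglia the list leaned the other way, with 7 genes called higher and 1 lower, where 4.49% and 11% of all genes were.

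Granulocyte genes made up a large part of the smallest differences. Prg2, the major basic protein of eosinophils, had the smallest difference of all genes named, at 5.66, 5.73 and 5.44 in Ly6C-high microglia against 12.28, 11.88 and 10.75 in monocytes, 65-fold lower (-6.02 ± 0.34, adjusted p = 1.65e-05). Of 18 neutrophil genes 15 were called lower and 0 higher, with a median of -3.83. Retnlg, a resistin-like secreted protein, read 5.97, 5.33 and 5.24 against 11.35, 11.09 and 11.59 (-5.83 ± 0.64, 4.51e-04), Ly6g, the antigen by which neutrophils are sorted, 4.44, 4.35 and 3.81 against 9.38, 8.18 and 9.37 (-4.78 ± 0.72, 0.00236), and Ngp, a granule protein, 5.83, 6.01 and 5.76 against 11.30, 10.68 and 10.72 (-5.03 ± 0.91, 0.00578). The Ly6C-high arrays were uniformly low in these 4 genes, while Ly6C-low replicate 3, whose spread enters the SE, had a neutrophil list mean of 8.47 against 6.38 and 6.53 in Ly6C-low replicates 1 and 2. Lcn2, lipocalin 2 (-4.76 ± 0.87, 0.00599), and Il1r2, a decoy receptor for IL-1 (-4.96 ± 0.41, 1.06e-04), were also among the 15 smallest differences. S100a8, which classical monocytes share with neutrophils, read 5.29, 11.75 and 7.93 against 12.92, 12.54 and 12.47 and was not called (0.0721), the Ly6C-high arrays being spread over 6 log2 units with replicate 2 on top. Without replicate 2 it differed by -6.03 (0.00567).

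Lymphocyte genes were low in Ly6C-high microglia and high in monocytes. B cell genes were called lower in 11 of 12 cases, with a median of -2.30, and in none higher. Cd79a, a signalling chain of the B cell receptor, read 5.11, 4.75 and 4.91 against 9.29, 10.41 and 9.94 (-4.96 ± 0.33, adjusted p = 3.59e-05), and Ms4a1, which encodes CD20, 4.47, 4.01 and 4.04 against 8.21, 9.19 and 8.66 (-4.51 ± 0.25, 1.61e-05). Jchain, the joining chain of plasma cell antibodies and outside the list, was lower by 30.5-fold (-4.93 ± 0.14, 1.83e-06). The exception was Ebf1, a factor of early B cells that pericytes and endothelium also express, at 9.20, 8.34 and 9.05 against 7.92, 8.97 and 8.54 (0.39 ± 0.49, 0.536). With the 6 arrays alone and a weight per group 7 B cell genes were called lower.

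T cell genes were lower in 8 of 11 cases, with a median of -2.87, led by Cd3g, a chain of the T cell receptor complex, at 5.18, 4.85 and 4.48 against 8.68, 8.29 and 9.21 (-3.89 ± 0.25, adjusted p = 3.16e-05). NK cell genes were lower in 7 of 12, with a median of -2.79, led by Il2rb, the shared receptor chain for IL-2 and IL-15, at 5.50, 5.66 and 5.07 against 9.63, 9.17 and 9.99 (-4.19 ± 0.23, 1.61e-05). Nkg7, a granule protein of cytotoxic cells, read 5.67, 6.85 and 4.96 against 9.61, 8.90 and 10.72 (-3.92 ± 0.56, 0.00189). In none of these lists was a gene called higher. P2ry10, a lysophospholipid receptor of lymphocytes outside the lists, read 3.76, 3.66 and 3.73 against 8.56, 9.26 and 9.10 (-5.26 ± 0.17, 2.58e-06).

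Dendritic cell genes were mixed, with 6 of 12 called lower, 2 higher and a median of -1.06. Kmo, an enzyme of tryptophan breakdown, differed by -2.90 ± 0.19 (adjusted p = 3.43e-05) and Bcl11a, a factor of plasmacytoid dendritic and B cells, by -2.33 ± 0.14 (2.14e-05). Tcf4, which endothelium expresses too, was higher (1.06 ± 0.16, 0.00262). The other higher gene, the actin-bundling Fscn1 (0.64 ± 0.16, 0.0218), lost its call without monocyte replicate 2 or 3 (0.0582 to 0.0711). Erythroid and platelet genes were lower in 3 of 8 cases, Alas2 (not without any array other than monocyte replicate 3, 0.0534 to 0.121), Slc4a1 and Ppbp, a platelet chemokine (-3.73 ± 0.35, 2.08e-04), and Car1, a carbonic anhydrase of red cells outside the list, was 44.5-fold lower, at 5.50, 4.89 and 5.45 against 10.76, 10.90 and 10.62 (4.70e-06). On the 4 haemoglobin probe sets, each shared by several globin genes, the Ly6C-high means were 11.15 to 12.50 and the monocyte means 11.97 to 12.96, none called (adjusted p = 0.188 to 0.509), and 3 of the 4 were called higher than in Ly6C-low microglia (0.00681 to 0.0428).

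Cell division genes again set Ly6C-high replicate 2 apart. Of 27 measured genes 4 were called lower, a share close to the 14.6% of all genes, and 0 higher, with a median of -0.55. The 4 were Mcm2, Mcm4, Mcm6 and Cdt1, which license DNA for replication. Mki67, the proliferation marker Ki-67, read 6.88, 9.69 and 6.30 in Ly6C-high replicates 1 to 3 and 9.39, 9.34 and 7.94 in monocytes and was not called (-1.27 ± 0.80, adjusted p = 0.254). Top2a, a topoisomerase of dividing cells, read 6.44, 9.13 and 5.63 against 8.78, 8.56 and 7.50 (0.261). Replicate 2 reached the monocytes in both genes and was the highest Ly6C-high array in 20 of 27, with a list mean of 7.45 against 6.48 and 6.18 in replicates 1 and 3 and 6.83 to 7.62 in monocytes. Without it 15 genes were called lower, Mki67 (-2.30, 0.00641) and Top2a (-2.25, 0.00481) among them, with a median of -0.96, and without monocyte replicate 1 or 2 the count was 2, as it was where groups were weighted by their spread. Mcm6, a subunit of the replicative helicase, kept its call in every setting, at 5.85, 6.80 and 5.54 against 8.32, 8.31 and 7.61 (-2.01 ± 0.32, 0.00325).

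Genes of other brain cells read low in both groups, with list means in the Ly6C-high arrays of 5.80 to 6.03 for astrocytes, 5.96 to 6.17 for oligodendrocytes and 5.08 to 5.29 for neurons. Of 11 astrocyte genes 4 were called higher, led by Gja1, connexin 43, which endothelium also expresses, at 8.58, 8.60 and 8.75 against 6.36, 6.47 and 6.60 (2.16 ± 0.29, adjusted p = 0.00136), while Aqp4, the water channel of astrocyte endfeet, read 4.67, 4.11 and 4.47 against 4.08, 4.03 and 4.12 and was called without Ly6C-high replicate 2 only (0.49, 0.0353). The other 3 were Slc1a2, Sox9 and Fgfr3. The astrocyte count was 1 without Ly6C-low replicate 2 or monocyte replicate 1 or 2, and 2 without monocyte replicate 3. Of 13 neuron genes 2 were called higher, Stmn2 and Slc17a7, and 4 without Ly6C-high replicate 2 and 0 without any single monocyte array. Of 11 oligodendrocyte genes 1 was higher, Mal (1.68 ± 0.25, 0.00247), and 1 lower, Cnp, whose call was lost without any single monocyte array (0.0538 to 0.0882). Fibroblast and ependymal genes gave 2 higher calls of 11, Igf2 and Tmem212, and 0 without Ly6C-high replicate 1 or 3, Ly6C-low replicate 2 or any single monocyte array.

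Promoters of the called genes were searched for 7 short motifs, on both strands of the 250 bases before the start. The ETS motif CCGGAAGT was in 1.02% of the 491 promoters of genes at least 2-fold higher, 6.51% of the 1428 of genes at least 2-fold lower and 4.51% of the 15613 of all genes on the arrays with a promoter in the table. PU.1, the product of Spi1, binds a related motif, and GAGGAAGT was in 3.05%, 5.88% and 2.59% of these. It shares the letters GGAAGT with the ETS motif. The SOX motif ACAATGG was in 4.48%, 1.61% and 2.75%. The other motifs searched were CTTTGAA for TCF/LEF (4.89%, 3.36% and 4.66%), TGANTCA for AP-1 (6.72%, 7.63% and 7.12%), TTGCGCAA for C/EBP (0%, 0.42% and 0.224%) and the TATA box TATAAA (12.6%, 8.89% and 12.5%). These shares describe the sequences, and no test was made of them.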

How the data were processed

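RNA was measured on Affymetrix Mouse Gene 1.0 ST arrays. The authors deposited log2 intensities, and the submitters' processing notes name RMA and oligo, with versions, settings and genome build not given in the sources used here. Of 34760 probe sets, 21640 carried 1 symbol, 1321 several and 11799 none in GEO's platform annotation. Genes with several probe sets were read by the brightest, giving 19937 genes. RMA is known to compress differences between genes of low signal. The number of arrays limits the precision.

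A linear model on all 9 arrays was fitted with limma 3.58.1 (lmFit, eBayes) in R 4.3.3, with Benjamini-Hochberg adjustment over 19937 genes. Tested on simulated data of 19937 genes, it recovered 52 of 100 genes changed 2-fold and 92 of 100 changed 4-fold, with 5 false among 149 calls. The simulation gave each gene the same spread in all groups and changed far fewer genes than were called here. In the data the median SD per gene was 0.27 in Ly6C-high microglia and 0.11 in monocytes, so these rates need not hold for them. Alternatives were other scalings, weights, filters, samples and single arrays left out. The 33 lists held 593 genes, 559 measured.

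The members and lists were chosen with earlier results of these data known. Genes were named by this rule: the 15 largest and 15 smallest differences among called genes whose arrays did not overlap and whose higher mean reached 6.13, the median of gene means (no predicted, clone, immunoglobulin or T cell receptor symbols), up to 4 called members per list with the largest differences plus up to 2 of the rarer direction, and the sort antigens. All other genes named were chosen after their values were seen. Promoters are RefSeq's, GRCm38.p6.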

Additional observations from a re-analysis of the deposited data

Results flagged for a closer look

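A signal appeared in probe sets outside the gene table, which held only probe sets with 1 symbol. Probe set 10450367, annotated to both Hspa1a and Hspa1b, was higher by 2.82 in Ly6C-high microglia over all probe sets (limma, adjusted p = 3.47e-04), with readings of 11.70, 11.68 and 12.09 against 9.09, 8.44 and 9.47 in monocytes. The mean of the Ly6C-low arrays was 11.89, a difference of -0.06 (adjusted p = 0.894). Among probe sets with several symbols, 44 of 1321 (3.33%) were called higher and 151 (11.4%) lower. Among those with no symbol, 302 of 11799 (2.56%) were called higher and 704 (5.97%) lower. Of all 34760 probe sets, 1548 (4.45%) were called higher and 3453 (9.93%) lower.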

How the results depend on the processing

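The fit to all 9 arrays called 4290 genes, 1371 higher and 2919 lower. With the 6 arrays alone, 894 were higher, and with quantile normalization 1729 were lower. A weight per group with the 6 arrays alone, an alternative chosen after seeing the data, gave 2764 calls, 817 of them higher. Leaving out each array in turn gave 2505 to 6091 calls, 743 to 2310 of them higher and 1740 to 3781 lower. Fits with arrays left out hold fewer samples, and the causes of these changes were not tested. The share of calls that were higher was 32% in the fit to all 9 arrays, 46.4% under quantile normalization and 45% under cyclic loess. None of the 148 genes named by the rule changed direction in the 20 alternatives, 111 kept their call in all of them, and 37 lost it in at least 1. Of genes named outside the rule, Csf1r stood at 0.0646 under cyclic loess and Wnt7a at -0.0586 and -0.0952 under quantile normalization and cyclic loess, C1qa ran from -0.0415 to 0.736 and Plvap from -0.145 to 0.501 with single arrays left out, and Csf1r alone of these 4 was called to begin with. The median of the oligodendrocyte list went from 0.19 to -0.01 without dim genes. The replicate block gave 4295 calls and ended the call of 6 of the 148 genes, and same-numbered arrays did not deviate together (correlations of -0.05, 0.04 and 0.05), so the numbers were not taken as pairs. With 3 arrays a group, a difference that was not called may still exist.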
